A study of Homo sapiens with 2 samples.

Results

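DNA methyltransferases, TET enzymes and the methylation reader UHRF1 were described in A375, a human melanoma line long kept in culture. The genes were DNMT1, DNMT3A, DNMT3B, DNMT3L, TET1, TET2, TET3 and UHRF1, 8 in all, chosen by gene symbol in the annotation of the array platform. They were listed with earlier results of these arrays known, and the intensities on both arrays and their ratio belong to that choice, so the values are a description and carry no test. Of the 8 genes, 7 had a row on the array, with 8 rows among the 45033 rows and 16583 named genes of the whole table. TET3 was not analysed here.

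One culture of A375 had received an empty lentivirus (empty-vector cells) and the other a lentivirus that encodes a hairpin RNA to silence BMI1 (shBMI-1 cells). Both were grown in the same medium, per the labels, and each RNA was hybridised to 1 single-colour oligonucleotide array after priming with oligo-dT. The control was an empty virus, not a virus with another hairpin, and the labels used here give neither the hairpin sequence nor the number of clones or days after infection. With 1 array per group there was no replicate error, no test was possible and no p-value is given.

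CpG methylation is copied at each cell division by DNMT1, which UHRF1 guides to newly replicated DNA by binding CpG sites methylated on the old strand alone. DNMT3A and DNMT3B can methylate unmethylated DNA, and DNMT3L is a relative without catalytic activity that stimulates both of them and is best known from germ cells and early embryos. TET enzymes oxidise methylcytosine on the way to its removal, and melanomas are known for low levels of the oxidised base. BMI1 is a subunit of Polycomb repressive complex 1, a repressor that acts through histones and not by methylating DNA.

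The promoters of 3 of these genes are shown because the CG letters, in capitals, are the sequence these enzymes act on, and because DNMT1 and UHRF1 are genes of dividing cells. Each window runs 5′ to 3′ on the gene's strand, from 250 bases before to 50 bases after the start of a promoter entry. The entries come from RefSeq on GRCh38.p14, and a gene can have other starts. Entries were found for 7 of the 8 genes, DNMT3L being the exception, and the entry listed first was taken for UHRF1, which had 3. The DNMT1 window is chr19:10194904-10195203 on the minus strand, the UHRF1 window chr19:4909251-4909550 on the plus strand and the DNMT3B window chr20:32779602-32779901 on the plus strand.
DNMT1: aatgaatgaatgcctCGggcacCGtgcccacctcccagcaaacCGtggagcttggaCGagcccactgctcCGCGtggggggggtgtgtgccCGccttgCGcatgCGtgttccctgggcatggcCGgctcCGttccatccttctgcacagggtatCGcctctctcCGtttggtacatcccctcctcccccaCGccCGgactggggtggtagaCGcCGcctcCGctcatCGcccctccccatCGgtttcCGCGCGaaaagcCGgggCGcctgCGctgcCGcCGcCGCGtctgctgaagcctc
UHRF1: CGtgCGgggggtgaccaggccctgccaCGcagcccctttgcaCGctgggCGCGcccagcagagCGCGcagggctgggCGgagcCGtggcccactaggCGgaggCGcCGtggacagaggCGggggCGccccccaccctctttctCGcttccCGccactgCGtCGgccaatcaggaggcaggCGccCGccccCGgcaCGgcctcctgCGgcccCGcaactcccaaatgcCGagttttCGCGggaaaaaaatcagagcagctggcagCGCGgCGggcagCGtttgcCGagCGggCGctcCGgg
DNMT3B: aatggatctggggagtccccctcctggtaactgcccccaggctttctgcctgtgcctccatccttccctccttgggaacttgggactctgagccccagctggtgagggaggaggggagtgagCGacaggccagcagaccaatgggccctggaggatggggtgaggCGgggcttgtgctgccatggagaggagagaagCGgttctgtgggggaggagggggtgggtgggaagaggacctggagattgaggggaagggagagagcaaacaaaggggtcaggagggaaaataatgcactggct

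These windows held 30 CG pairs for DNMT1, 36 for UHRF1 and 3 for DNMT3B, against a median of 14 over all 35116 promoter entries. DNMT3B had 1 entry. Whether A375 cells, or the transcript of the measured row, use the start shown was not tested, so the counts describe these windows and not the genes. The letters TTTCCCGC, TTTGGCGC, TTTCGCGC and TTTGCCGC, forms of the E2F motif of genes of the DNA synthesis phase, were searched on both strands, and 3.31% of all entries held one. The DNMT1 window held one that begins 2 bases before the start (-2), and the UHRF1 window one at -14. A second UHRF1 entry held one at -160, and the third UHRF1 entry and the entries of DNMT3B, DNMT3A, TET1, TET2 and TET3 held none. A match is a description of letters and not of a bound site.

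BMI1, the targeted gene, was at an intensity of 68.6 in empty-vector cells and 25.8 in shBMI-1 cells, 2.66-fold lower. Both values were under the array medians of 131.2 and 129.8, and 25.2% of the 500 rows closest in level were past 2-fold. The log2 ratio of BMI1 was -1.41, or -0.65 with a pseudocount of 50, and 5.2% of those 500 rows had a lower ratio. The fold of BMI1 is thus uncertain. Of 8 melanocyte and melanoma markers with a row, SOX10, S100B and S100A1 were above those medians, while MITF, MLANA, PMEL, TYR and TYRP1 were not. The keratin genes KRT5 and KRT14 were also above them, with ratios of 0.39 and 0.42, whereas CDH1, EPCAM and all 10 fibroblast, leukocyte and endothelial markers with a row were below. Ratios are log2 of shBMI-1 over empty vector throughout. The only measurable error was the row SD, the pooled SD of the ratios of different rows of one gene in the same band of level. Rows of one gene can stand for different transcripts, so this spread is not error alone.

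Of the 7 measured genes, only DNMT3L was past 2-fold, and it was higher with shBMI-1. In RNA of a whole culture, more cells that express a gene and more RNA per cell cannot be told apart. UHRF1 and DNMT1 had small positive ratios, and DNMT3B had a negative one of a size common at its level. TET1, TET2 and 1 of the 2 DNMT3A rows were dim. The brightness limit was the median of the array, and a gene passed it if the mean of its rows reached that median on 1 array or both. Among the measured genes, 4 passed, namely DNMT1, DNMT3B, DNMT3L and UHRF1, and each of them was above the median on both arrays. With each gene read from its brightest row DNMT3A passed too, which made 5. The median ratio of the 4 that passed on the mean of their rows was 0.30, and 3 of them were above 0. Over all 8921 genes that passed, the median was 0.09 and 60.0% were above 0. Of the 8921 genes, 3.23% were higher by 2-fold or more and 3.55% were lower by as much, 6.78% together, and without the limit 10.9% of the 16583 genes were past 2-fold.

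**Figure D1:**
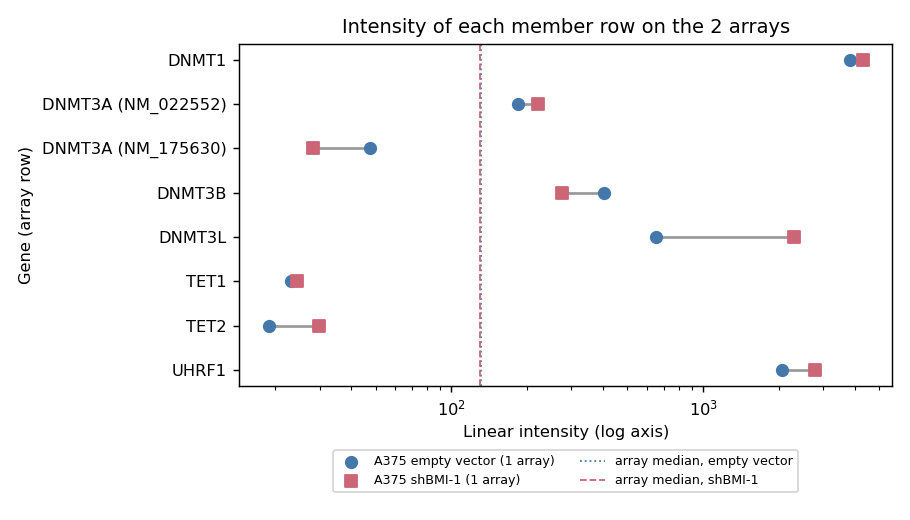
Linear intensity (log axis) of each row of the 7 measured genes on the empty vector array (circles) and the shBMI-1 array (squares), 1 array each, with the array medians of 131.2 and 129.8 as vertical lines. DNMT3L moved from 648.9 to 2299, whereas TET1, TET2 and 1 of the 2 DNMT3A rows lie left of the medians on both arrays, and levels of different rows are not comparable with each other.

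The plot of intensities by row shows how far apart the 2 arrays were for each gene. DNMT3L, the catalytically inactive partner of the DNMT3 enzymes, was at 648.9 in empty-vector cells and 2299 in shBMI-1 cells, a ratio of 1.83 or 3.54-fold. These intensities lay at percentiles 77.4 and 90.2 of their arrays, so both measurements were bright. The row SD at that level was 0.25. Of the 500 rows closest to it in mean level, 0.0% had a higher ratio, the central 90% ran from -0.52 to 0.50, and 0.80% were past 2-fold.

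Among all 8921 genes that passed, 288 were higher by 2-fold or more, and DNMT3L ranked 60th by its ratio. Few of the 288 were bright on both arrays. Of the 3972 genes that reached the 75th percentile on both, 13 were higher by 2-fold or more, 0.327% of them, and DNMT3L had the largest ratio of the 13. This stricter limit was not among the planned settings. On the empty vector array it was 548.7, not far under the 648.9 of DNMT3L, so the rank depends on the limit and is a description alone. The next was EPS15L1, an endocytic adaptor gene, at 2.62-fold. DNMT3L was measured by 1 row, so no other row of the gene could be set against it.

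The genes beside DNMT3L on chromosome 21 did not share its ratio. Of the 3 nearest measured genes on each side, 2 were above 0, and the 6 ratios ran from -0.33 to 0.24. AIRE, the transcriptional regulator of self-antigens in the thymus, was at 329.9 in empty-vector cells and 262.8 in shBMI-1 cells, a ratio of -0.33. ICOSLG, a costimulatory ligand gene on the other side, was dim at 47.7 and 42.9.

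**Figure D2:**
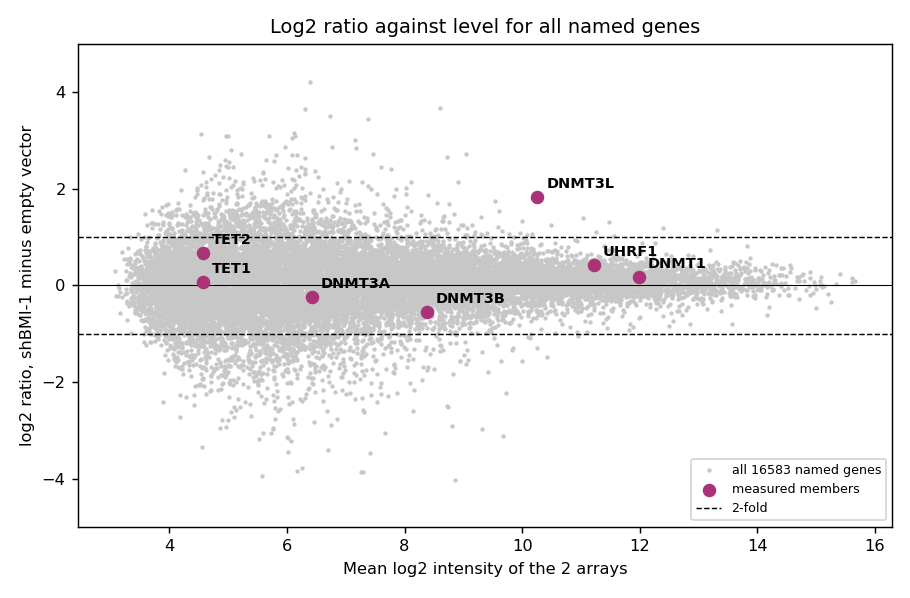
Log2 ratio of shBMI-1 over empty vector against the mean log2 intensity of the 2 arrays, for all 16583 named genes (grey) and the 7 measured genes of this family (purple), with dashed lines at 2-fold. The grey cloud narrows as level rises, and DNMT3L, at 1.83, lies above the upper line in the bright range where 0.80% of its nearest rows were past 2-fold.

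The maintenance pair was bright on both arrays. DNMT1, the maintenance methyltransferase, was at 3823 in empty-vector cells and 4304 in shBMI-1 cells, a ratio of 0.17 with a row SD of 0.23. Its ratio was thus within the row SD, and 33.8% of the 500 rows closest in level were higher. UHRF1, the reader that brings DNMT1 to replicated DNA, was at 2062 in empty-vector cells and 2769 in shBMI-1 cells. Its ratio of 0.43, or 1.34-fold, was larger than the row SD of 0.23, and 8.60% of its 500 nearest rows were higher. It lay within the central 90% of those rows, which ran from -0.36 to 0.48.

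DNMT3B, a de novo methyltransferase, was at 402.8 in empty-vector cells and 274.8 in shBMI-1 cells, 1.47-fold lower. Its ratio of -0.55 was larger than the row SD of 0.42, and 10.4% of the 500 rows closest in level were lower. It therefore lay within the central 90% of those rows, which ran from -0.79 to 0.75. DNMT3A, the other de novo enzyme, had 2 rows, and they differed in sign. Its row for the RefSeq transcript NM_022552 was at 183.2 and 221.0, above both array medians, with a ratio of 0.27 and a row SD of 0.60. The row for NM_175630 was at 47.6 and 28.3, under both medians, with a ratio of -0.75 and a row SD of 0.80. Averaged over both rows the DNMT3A ratio was -0.24, and with the brighter row alone it was 0.27, so no direction can be given for the gene.

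The TET genes were near the dim end of both arrays. TET1 was at 23.1 in empty-vector cells and 24.4 in shBMI-1 cells, a ratio of 0.08, at percentiles 14.2 and 15.5. TET2, which is often mutated in blood cancers, was at 18.8 and 29.9, a ratio of 0.67 with a row SD of 0.74. Its only row was for the RefSeq transcript NM_017628, so other transcripts of TET2 may not be covered. Of the 500 rows nearest to TET2 in level 20.4% had a higher ratio, and with a pseudocount of 50 its ratio was 0.21. Neither TET gene differed by more than the row SD, and at these intensities a change could not be told from the spread of dim rows. Whether these rows were above background is not known, since no background values were used.

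**Figure D3:**
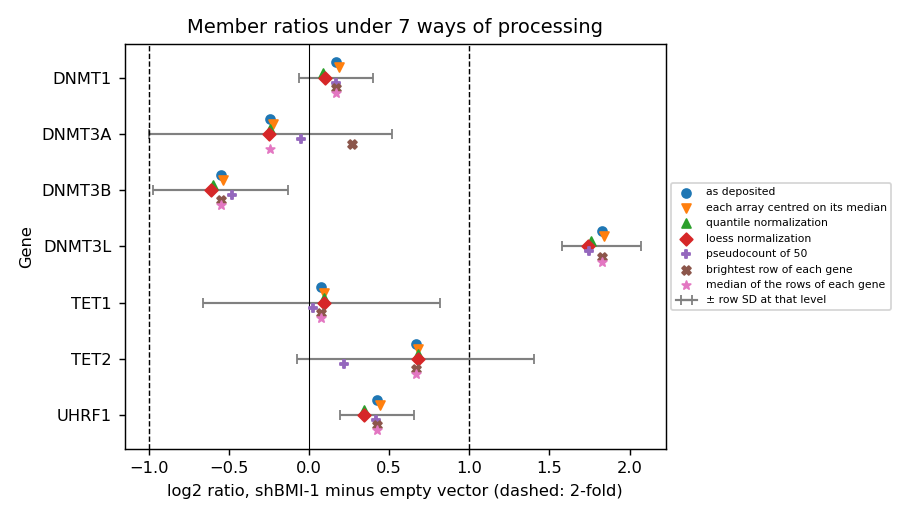
Log2 ratio of shBMI-1 over empty vector for each measured gene, as deposited and under 6 other ways of processing (symbols), with the row SD at that gene's level as a bar around the value as deposited and dashed lines at 2-fold. DNMT3L stays between 1.74 and 1.84, whereas DNMT3A changes side of 0 when its brighter row is taken alone.

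DNMT3L stayed past 2-fold under all 6 alternatives in the plot of ratios by way of processing, from 1.74 with loess to 1.84 with median centring. Taking the brightest or the median row could not alter it, nor the ratios of UHRF1, DNMT1 and DNMT3B, since each had 1 row. Median centring shifts every ratio by the same amount. The ratio of UHRF1 stayed above its row SD, from 0.34 with quantile normalization to 0.44 with median centring. That of DNMT1 ran from 0.09 to 0.19 and that of DNMT3B from -0.61 to -0.48. As deposited, DNMT3B fell short of 1.5-fold lower, at 1.47-fold, but it passed that size after quantile normalization (-0.60) and after loess (-0.61).

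Partners and pathways of these enzymes were taken as 8 lists. Their counts and medians stand beside 6.78% past 2-fold, 60.0% above 0 and a median of 0.09 over the 8921 genes that passed. In these lists 5 genes reached the brightness limit on 1 array alone, the array where they were higher, namely GADD45A, MTRR, SLC23A2 and DLK1 on the empty vector array and GRB10 on the shBMI-1 array, so counts and medians are also given without them. Genes that work with DNMT1 and UHRF1 in maintenance or silencing numbered 17 above the limit, of which 0 were past 2-fold, with 11 above 0 and a median of 0.06 that was -0.03 after quantile and -0.02 after loess normalization. PCNA, the replication clamp that DNMT1 binds, had a ratio of 0.40 over 2 rows and is also in the list of DNA synthesis genes, and PCLAF, a PCNA-associated factor, had one of 0.35 over 2 rows. CDCA7L had a ratio of 0.33, and HELLS, the remodeler needed for normal DNA methylation, was at 153.0 and 144.0. Genes of the DNA synthesis phase, in which UHRF1 and DNMT1 act, had a median of 0.17 over 23 genes with 18 above 0 and 0 past 2-fold. Of these genes, 19 also passed a limit at the 75th percentile, as did 14 of the 17 maintenance partners. The spread of ratios narrows as level rises, so a count of 0 says little about either list. Most genes of the demethylation, S-adenosylmethionine and germline lists below passed that limit too, so the same holds for them. CHAF1B, a subunit of the chromatin assembly factor, was at 931.2 and 1468 (0.66, row SD 0.25), and the helicase and replisome genes MCM3 (0.54) and GINS2 (0.53) were next.

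The list of methyl-CpG readers and related genes had a median of -0.05 over 5 genes, with 2 above 0. That median was -0.08 after quantile and -0.10 after loess normalization. As deposited it was the ratio of SETDB1, and MBD4 had a ratio of -0.09. Whether each gene in the list binds methylated CpG was not tested, so the sign of the median is not a result about readers. MBD6, a member of the methyl-binding domain family, was at 1148 and 792.2, a ratio of -0.54. ZBTB4, a zinc finger reader, had a ratio of 0.40, and MBD1 one of 0.28 as the mean of 3 rows. In the list of demethylation and base excision genes, 5 of 10 were above 0 and 0 past 2-fold. Its median of 0.02 was -0.05 after quantile or loess normalization, -0.02 where each gene was read from its brightest row and -0.04 without the limit. Without GADD45A, 5 of 9 were above 0 and the median was 0.04. GADD45A, a stress-induced gene linked to demethylation, was at 237.9 and 127.4 (-0.90, row SD 0.60), the second value under its array median. HMCES, which shields abasic sites in DNA, had a ratio of 0.38, and CXXC5, which has a CXXC zinc finger like that of TET1, one of 0.35.

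Enzymes that supply or use S-adenosylmethionine, the methyl donor of the DNMTs, had a median of 0.08 over 13 genes, with 10 above 0 and 0 past 2-fold. That median was 0.0026 after quantile and 0.01 after loess normalization, and it was 0.08 over 12 genes without MTRR. NNMT, which spends the donor on nicotinamide, was at 280.4 and 492.5 (0.81, row SD 0.42). GNMT, a methyltransferase that spends it on glycine, had a ratio of -0.46, and MTRR, which keeps methionine synthase active, was at 160.1 and 121.0 (-0.40, row SD 0.60), the second value under its array median. Genes tied to the cofactors of TET enzymes had a median of 0.15 over 11 genes, with 7 above 0 and 1 past 2-fold, which is 1 in 11 beside the 6.78% of all genes that passed. That median was 0.07 after quantile and 0.08 after loess normalization, and 0.17 over 10 genes without SLC23A2. The gene past 2-fold was SLC23A1, a transporter of ascorbate, a cofactor of TET activity. It was at 1812 in empty-vector cells and 4520 in shBMI-1 cells, 2.49-fold higher with a row SD of 0.23. By its ratio it ranked 4th of the 13 bright genes among which DNMT3L was first, and it too was measured by 1 row. The related transporter gene SLC23A2 was at 167.6 and 117.4, a ratio of -0.51 with a row SD of 0.60, and its second value was under the array median. IDH2, a mitochondrial enzyme that makes the TET cofactor 2-oxoglutarate, had a ratio of 0.45.

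**Figure D4:**
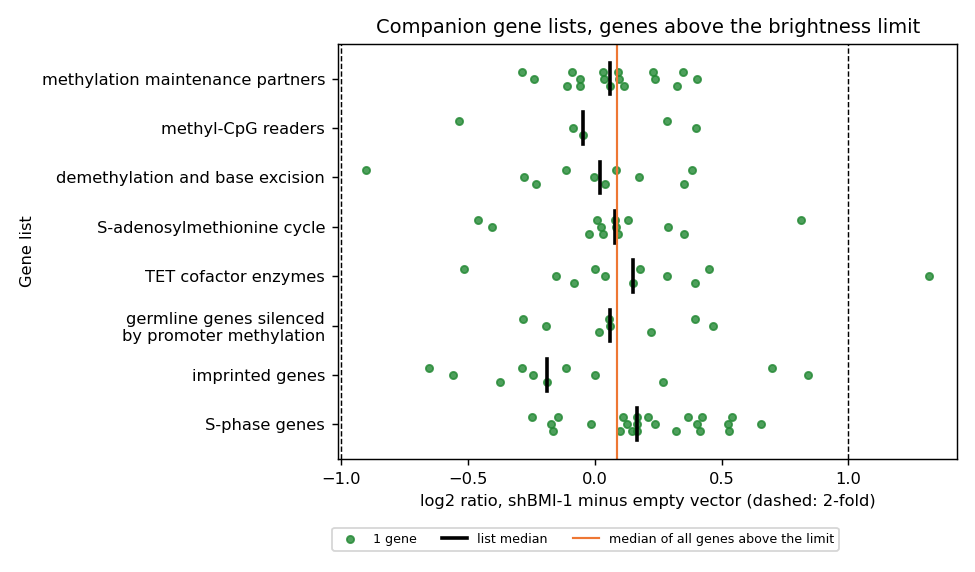
Log2 ratio of shBMI-1 over empty vector for each gene above the brightness limit (points) in the 8 lists of partner and pathway genes, with the list median as a black bar and the median of all 8921 genes, 0.09, as an orange line. SLC23A1, at 1.32 in the list of TET cofactors, is the only point past the dashed 2-fold lines.

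Genes whose promoters or control regions are known to be methylated were the last group. Germline genes that promoter methylation silences in body cells had 8 of 25 above the limit, with 6 above 0, 0 past 2-fold and a median of 0.06 that was -0.02 after quantile or loess normalization. MAGEA1, a cancer-testis antigen gene with close paralogs, was at 6969 and 9628 (0.47, row SD 0.20). FKBP6 had a ratio of 0.39 and SOHLH2, a germ cell transcription factor, one of -0.28. Imprinted genes had a median of -0.19 over 11 genes, with 3 above 0, 7 below and ZNF331 at the same intensity on both arrays. The median was the ratio of DLK1, which was at 131.5 and 115.4, and without DLK1 and GRB10 it was -0.24 over 9 genes, with 2 above 0. It was -0.06 over 12 genes read from their brightest rows, -0.11 over 19 genes with no limit and -0.33 over 4 genes with the limit at the 75th percentile. GRB10, a growth factor receptor adaptor, was at 79.5, under its array median, and 142.2 (0.84, row SD 0.76). NDN was at 225.5 and 366.4 (0.70, row SD 0.42) and MEST at 340.7 and 216.6 (-0.65, row SD 0.42). SNRPN, chosen after its values were seen because it had 4 rows, had a ratio of -0.29 with its rows between -0.31 and -0.25. DNA methylation itself was not measured on these arrays.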

How the data were processed

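Gene expression of 2 cultures of A375 was measured on NimbleGen single-colour arrays with Cy3-labelled cDNA, per the labels' protocols. The authors deposited 1 linear intensity per row and array. How the arrays were scanned and normalized, and how probes were combined into a row, is not given in the sources used. The 2 columns shared 3218 distinct values. Depth has no meaning for arrays, and 1 array per group limits the precision.

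Rows were named by the platform's annotation table, which gave 18188 rows a symbol and left 26845 unnamed here. The log2 of each intensity was taken with no pseudocount, rows of one gene were averaged, and the ratio was shBMI-1 minus empty vector. The members and lists were chosen with earlier results of these data known. The text names all members, BMI1, the markers and list genes past 2-fold. It also names the 3 genes of each list with the largest absolute ratio above the brightness limit. A few known partners and other genes are named besides, whose values had been seen. Gene order and promoters came from RefSeq tables of GRCh38.p14. The steps were tested on simulated data with equal noise at every level and no bias between arrays. Changes were set only in genes of 1 row above the median of the empty vector array. Dim genes and genes of several rows were not covered. Alternatives were median centring, quantile and loess normalization (span 0.3, 3 iterations), a pseudocount of 50, the brightest or the median row, no limit, a limit at the 75th percentile, and thresholds of 1.5-fold and 3-fold. Brightness limits on the average of the arrays, and met on both arrays, were chosen after seeing the data. The limit at the 75th percentile on both arrays was not among the planned settings either. The tools were Python 3.11.15, numpy 2.4.6, pandas 2.3.3, statsmodels 0.14.6 and matplotlib 3.10.9.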

Additional observations from a re-analysis of the deposited data

How the results depend on the processing

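Of 184 values recomputed under an alternative, 175 kept their direction and moved by less than the row SD or, for counts, by no more than 1.5 times. The other 9 changed sign, none of them past 2-fold. These totals do not measure stability. The row SD describes single rows, so it is a wide limit for the median of a list. Ratios of genes with 1 row could not change with the choice of row. DNMT3A was at 0.27 with its brightest row alone, against -0.24. The median of the maintenance partners was -0.0291 after quantile and -0.0198 after loess normalization (0.06 as deposited), and that of the germline genes -0.0236 and -0.0235 (0.06 as deposited). The demethylation median was -0.0480 and -0.0540 after these, -0.0152 where each gene was read from its brightest row and -0.0407 without the limit (0.02 as deposited). The imprinted median (-0.19 as deposited) ran from -0.33 with the limit at the 75th percentile to -0.06 with brightest rows, and was -0.24 where the limit was met on both arrays. Quantile and loess normalization moved the S-adenosylmethionine median to 0.0026 and 0.01 (0.08 as deposited), the TET cofactor median to 0.07 and 0.08 (0.15) and the methyl-CpG reader median to -0.08 and -0.10 (-0.05). The median of all genes above the limit was itself 0.03 after quantile and 0.02 after loess normalization. The count of family genes past the threshold was 1 under every alternative run, including thresholds of 1.5-fold and 3-fold. Those thresholds were run only as deposited, on the 4 genes above the limit. DNMT3B passed 1.5-fold after quantile and loess normalization, and TET2, under the limit, was at 1.59-fold as deposited. The median ratio of the family was 0.17 over 7 genes with no limit and 0.43 over 3 with the limit at the 75th percentile. Brightness limits what can be seen, since 19.8% of the 500 rows closest in level to TET2 were past 2-fold. No paired analysis was possible because each group had 1 array.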

Other observations

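TRDMT1, formerly called DNMT2, has the sequence of a DNA methyltransferase but methylates transfer RNA, and it was not among the 8 genes. It was looked at after its values were seen. It was at 22.0 in empty-vector cells and 143.9 in shBMI-1 cells, a ratio of 2.71, or 1.43 with a pseudocount of 50. The empty vector value was at percentile 13.1 of its array, so the gene passed the brightness limit through the shBMI-1 array alone. Of the 500 rows closest in level, 0.20% had a higher ratio and 22.2% were past 2-fold. The row SD at that level was 0.80, and the gene had 1 row.

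ASXL2, a Polycomb-associated gene that lies near DNMT3A on chromosome 2, was at 338.5 and 32.1, a ratio of -3.40 in 1 row, or -2.24 with a pseudocount of 50. The shBMI-1 value was at percentile 21.4 of its array, so ASXL2 passed the brightness limit through the empty vector array alone. The row SD at its level was 0.76, and 12.8% of the 500 rows closest in level were past 2-fold. DTNB, which lies between ASXL2 and DNMT3A, was at 338.3 and 358.2 over 3 rows.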
